A study of Mus musculus with 62 samples.

Results

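The proteasome subunit genes were described across single cultured tumour cells. The 42 members are all gene rows whose name begins with Psma, Psmb, Psmc, Psmd or Psme followed by a digit, without Psmb8 and Psmb9, out of 19112 gene rows in the table. The rule itself uses names alone. By structure, 14 encode the core particle, 9 the base and 8 the lid of the regulatory particle, 4 encode activators and 3 encode assembly chaperones. Psmb10 and Psmb11 encode core subunits of immune cells and of the thymic epithelium. Psmc3ip, a meiotic recombination factor, and Psme2b, a near copy of Psme2, entered by name only. For Psma8 no row was analysed here.

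The cells were KPC1199-EGFP, a mouse pancreatic cancer line on the C57BL\6 background that expresses EGFP. They were grown as an adherent 2D culture with no treatment and taken at passage 9, in DMEM with 10% fetal bovine serum. After trypsin treatment, cells were isolated 1 by 1 and their cDNA amplified in a Fluidigm C1 medium-size chip, and libraries were made with Nextera XT. The labels give 62 libraries of 1 cell each from 1 culture, so the libraries are cells and not replicate cultures, and no comparison between groups or p-value is given.

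In 50 libraries the ERCC spike-ins, synthetic RNAs added to each reaction, took 0.19% to 1.83% of all counts, and these are the libraries described below. They held between 2153900 and 12868800 gene counts and between 6832 and 11068 genes above 0. The other 12 libraries had spike-in shares of 22.3% to 97.2%, and the 42 members are described in them separately. Levels are in CPM, counts scaled to a fixed gene total per library. Among 6 ductal epithelium markers, 5 were detected in 25 or more libraries, and their sum was 3599 to 24472 CPM. The 6 immune markers summed to between 0 and 33.5 CPM, with Cd3e and Lyz2 at 0 throughout. The 5 fibroblast markers reached 75.02 CPM at most, with Dcn and Lum at 0. The 4 endothelial markers reached 215 CPM, all from Egfl7, with Pecam1, Cdh5 and Kdr at 0. Of 5 acinar markers 3 had a row. Their sum reached 97.4 CPM, with Cpa1 at 0.

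The proteasome is the large protease that degrades proteins tagged with ubiquitin. Its core is a barrel of stacked rings: outer alpha rings that gate the entrance, and inner beta rings that hold the protease sites. The regulatory particle caps the barrel. Its base unfolds substrates with a ring of ATPases and its lid removes the ubiquitin chain. Tumour cells depend on this machinery, and inhibitors of the core, such as bortezomib, act on the subunit encoded by Psmb5. When proteasome activity falls, the transcription factor NRF1 (gene Nfe2l1) raises subunit genes through antioxidant response elements in their promoters.

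The promoters of 3 beta ring genes are shown because they hold motifs of such factors close to the start site. Each is the 120 bases before the annotated start site, from RefSeq on build GRCm38.p6, on the strand of the gene. Capitals mark the antioxidant response core TGACNNNGC in the first and second and the CCAAT box, bound by NF-Y, in the third.
Psmb5, chr14:54617996-54618115, minus strand: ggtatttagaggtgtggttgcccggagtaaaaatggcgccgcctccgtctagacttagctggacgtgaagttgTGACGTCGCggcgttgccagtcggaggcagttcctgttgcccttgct
Psmb6, chr11:70525237-70525356, plus strand: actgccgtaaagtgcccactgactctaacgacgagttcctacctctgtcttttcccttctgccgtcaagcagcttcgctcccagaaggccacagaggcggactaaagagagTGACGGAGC
Psmb3, chr11:97703314-97703433, plus strand: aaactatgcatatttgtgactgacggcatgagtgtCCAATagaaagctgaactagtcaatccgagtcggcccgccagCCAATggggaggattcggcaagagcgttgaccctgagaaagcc
The match in Psmb5 spans bases -47 to -39 from the start site and that in Psmb6 bases -9 to -1. Psmb3 holds CCAAT at -85 to -81 and at -43 to -39.

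The table held promoters of 36 of the 42 members, 39 promoters in all since a gene may have several. The missing ones were Psmb1, Psmb2, Psmb7, Psmc3, Psmd3 and Psmd7. Both strands of 300 bases per promoter were searched. TGACNNNGC was found in 6 of 39 member promoters (15.4%) and in 12.4% of all 32851 promoters of the table. Besides Psmb5 and Psmb6, the genes were Psmc6, Psmd12, Psmd9 and Psme4. CCAAT was found in 14 of 39 (35.9%), against 37.4% of all. The GC box GGGCGG, bound by SP1, was found in 22 of 39 (56.4%), against 35.7% of all. In the 3 stretches printed above no other searched motif overlapped the capitals. A match is a description of these letters and says nothing of binding.

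Proteasome genes were expressed in every one of the 50 cells and took a narrow share of the transcriptome. The 42 members together held 1.09% of gene counts in the lowest library, 1.63% in the median library and 1.97% in the highest, with a mean of 1.60% ± 0.17 (SD, n = 50). Libraries 19, 21 and 5 were lowest, at 1.09%, 1.10% and 1.25%. Of the 42 members 33 were above 0 in all 50 libraries, against 11.4% of all gene rows. The count was 31 with detection at 1 CPM, and 32 after thinning each library to 2000000 counts. All 14 core genes, all 9 base genes and 6 of 8 lid genes were above 0 in every library. The exceptions in the lid were Psmd11, at 0 in 1 library, and Psmd13, at 0 in 4. Among genes above 0 in at least 10 libraries, 478 lay in the core's range of mean level. Of these 464 were above 0 in all 50. In the range of core, base and lid together it was 1696 of 2766.

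**Figure D1:**
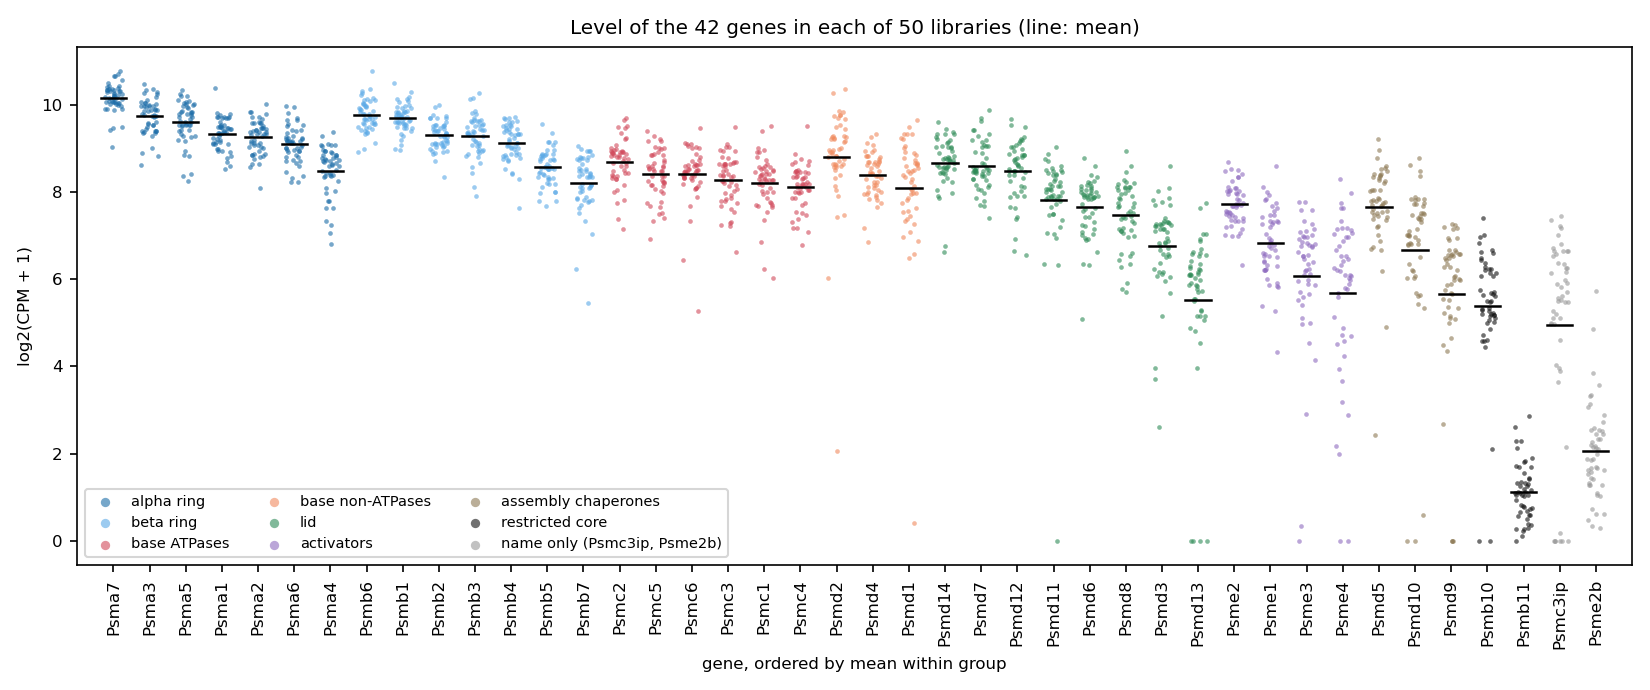
Level of each of the 42 genes as log2(CPM + 1) on the vertical axis, with 1 point per library (50 libraries), a black line at the mean, and colours for structural groups. Core genes form compact clouds between means of 8.20 and 10.16, while single points at or near 0 appear in Psmd1, Psmd11, Psmd13, Psme3 and Psme4.

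Levels were compared between genes only per kilobase of coding length, taken from GENCODE M21. The alpha ring genes were among the highest. Psma7, an alpha ring gene, led all subunits at 1559 CPM per coding kb in the median library. Its level was 525 CPM in the lowest library, 1160 in the median and 1748 in the highest. Psma3 and Psma5 followed at medians of 1147 and 1111 CPM per coding kb. Counts of Psma7 were fractional in 21 of 50 libraries and those of Psma3 in 41, so the levels and places of both are uncertain. Psma2, Psma1 and Psma6 lay at 915, 838 and 761. Psma4 was lowest in the ring at 511, and also had the ring's largest spread, from 110 to 660 CPM. The smallest spread in the ring was that of Psma7. On log2(CPM + 1), Psma7 stood at 10.16 ± 0.33 and Psma4 at 8.49 ± 0.57 (SD, n = 50).

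The beta ring had a similar median level, 1048 CPM per coding kb against 915 for the alpha ring. Among its protease subunits, Psmb6, which carries the caspase-like site, was highest at 1203 CPM per coding kb. Its values ran from 483 through 859 to 1761 CPM (lowest, median, highest). Psmb5, which carries the chymotrypsin-like site, had a median of 478 CPM per coding kb, and ran from 203 through 378 to 756 CPM. Psmb7, which carries the trypsin-like site, was lowest of the core at 392 CPM per coding kb. It ran from 43.05 CPM in library 19 through 326 to 534 CPM. Per coding kb, Psmb6 exceeded Psmb5 in 50 of 50 libraries, with a median ratio of 2.50 and a range of 1.40 to 5.42. Psmb7 exceeded Psmb5 in 14 of 50 libraries, with a median ratio of 0.824, so the values of those 2 genes overlapped widely.

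The structural beta genes Psmb1, Psmb3, Psmb2 and Psmb4 had medians of 1162, 1058, 1048 and 717 CPM per coding kb. Psmb1 had the smallest spread of all 42 members, 9.70 ± 0.31 on log2(CPM + 1). Its lowest value, 495 CPM, and its highest, 1440 CPM, differed 2.91-fold. Psmb7 had the largest spread in the core at 8.20 ± 0.67.

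The 6 ATPase genes of the base lay close together in level, below most of the core. They had medians between 230 CPM per coding kb for Psmc4 and 311 for Psmc2. The highest and lowest of these medians differed 1.35-fold, against 2.70-fold across all 9 base genes and 3.98-fold across the core. Psmc6, Psmc5, Psmc3 and Psmc1 lay between them at 303, 291, 248 and 239. Psmc4 ran from 109 through 288 to 733 CPM and had the smallest spread of the ATPases, 8.11 ± 0.51. Psmc6 had the largest, 8.40 ± 0.66, with a lowest value of 37.6 CPM in library 58 beside a median of 354 CPM.

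The other 3 base genes differed more. Psmd4, the ubiquitin receptor, was level with the ATPases at 303 CPM per coding kb and ran from 114 through 342 to 637 CPM. Psmd4 counts were fractional in 15 of 50 libraries. Psmd2 and Psmd1 encode the large scaffold subunits, and their medians were 180 and 115 CPM per coding kb. Each had 1 library far below the others. Psmd1 ran from 0.333 CPM in library 17 (3 counts) through 329 to 797 CPM, and its SD of 1.35 was the largest of the base. Psmd2 ran from 3.19 CPM in library 5 (18 counts) through 490 to 1308 CPM, at 8.79 ± 1.22. The SD of Psmd1 was 0.78 without library 17, and that of Psmd2 was 0.75 without library 5.

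Lid genes ranged more widely in level than core or base genes, 8.13-fold between the highest and lowest median. Psmd14, the deubiquitinase of the lid, was highest at 457 CPM per coding kb, above Psmb7 of the core. It ran from 97.1 CPM in library 19 through 425 to 782 CPM. Psmd7, its structural partner, followed at 374 CPM per coding kb and had the smallest spread of the lid, 8.60 ± 0.55. Psmd12, Psmd11, Psmd6 and Psmd8 lay at 277, 205, 202 and 175. The lowest were Psmd3 at 81.0 and Psmd13 at 56.3 CPM per coding kb. Psmd13 ran from 0 through 63.5 to 213 CPM and had the largest spread of the lid, 5.52 ± 1.80. Psmd3 ran from 5.13 through 129 to 389 CPM, and Psmd11 from 0 in library 19 through 259 to 520 CPM. The SD of Psmd11 was 1.26, and 0.58 without library 19.

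**Figure D2:**
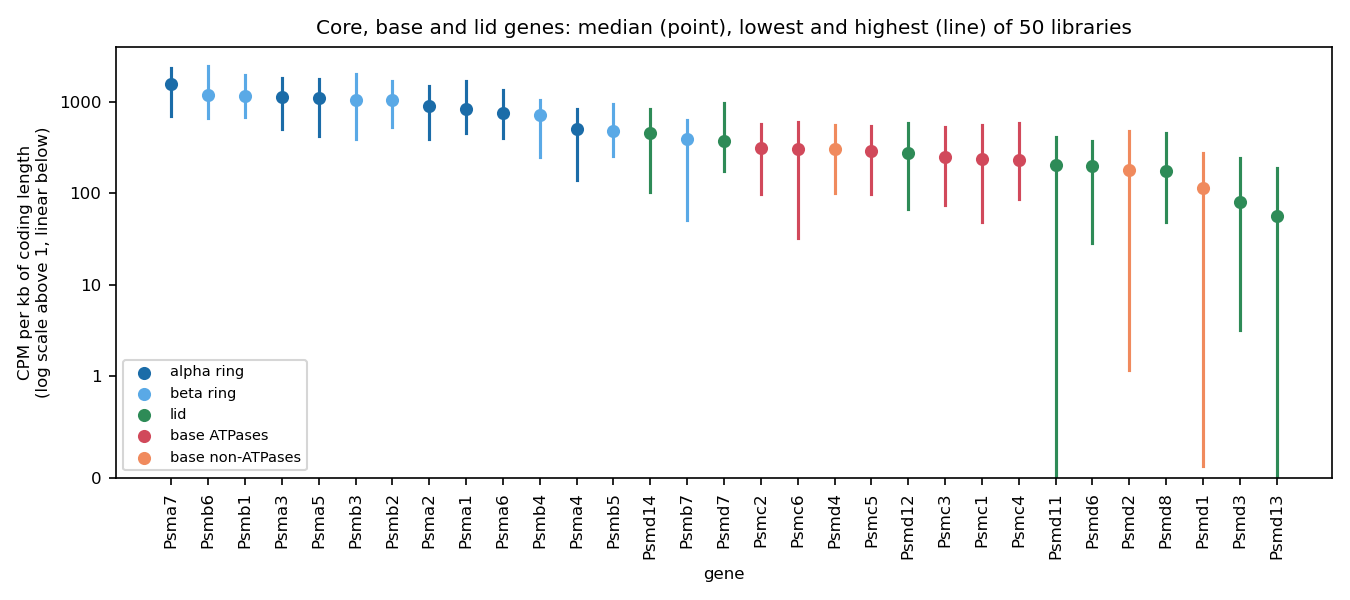
CPM per kilobase of coding length (vertical axis, log scale above 1) for the 31 core, base and lid genes, ordered by median. Points are medians and lines run from the lowest to the highest of 50 libraries. The blue core genes occupy the left end, and Psmd14 is the lid gene placed among them.

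The order of core above base above lid was then read within each cell. The median core gene exceeded the median base gene, per coding kb, in 50 of 50 libraries, with a median ratio of 3.61 and a range of 2.68 to 7.52. The core exceeded the lid in 50 of 50 libraries, with a median ratio of 4.41. The base exceeded the lid in 36 of 50 libraries, with a median ratio of 1.23 and a range of 0.615 to 2.35. Base and lid therefore overlapped in this respect. With exon length in place of coding length the ratios were 2.61, 3.86 and 1.48, and the core was again above base and lid in 50 of 50. With no length scaling the core exceeded the base by a median of 1.83. Individual genes with long untranslated ends changed place with exon length: Psma2 moved from rank 8 to rank 19 of the 31 and Psma3 from 4 to 12. Psmd14, above Psmb7 per coding kb, was below it per exon kb, at 276 against 281 CPM.

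Activators open the core gate without ubiquitin. Psme1 and Psme2 encode the paired subunits of an interferon-induced activator ring, Psme3 the nuclear activator and Psme4 a large single-chain activator. Psme2 stood at 290 CPM per coding kb, ran from 79.7 through 208 to 410 CPM, and had an SD of 0.48. Psme1 stood at 149 CPM per coding kb and ran from 19.04 through 111 to 388 CPM. Psme1 was above Psme2, per coding kb, in 4 of 50 libraries, with a median ratio of 0.563. Psme3 and Psme4 had medians of 117 and 12.7 CPM per coding kb, and were at 0 in 1 and 2 libraries. Psme4 had the largest SD of the activators, 5.68 ± 1.86. Counts of Psme2 and of its near copy Psme2b were fractional in all 50 libraries, so reads could be split between them and both levels are uncertain. Psme2b had a median of 2.83 CPM.

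Subunits of the immunoproteasome, which replace the protease subunits after interferon, were low or at 0. Psmb8 and Psmb9, outside the members by the rule, were above 0 in 0 and 3 of 50 libraries. For Psmb8 the exact 95% upper limit on the share of cells with a count was 7.11%. Psmb9 reached 21.4 CPM in library 46, 15.4 in library 11 and 8.57 in library 18. Psmb10, the third such subunit, was above 0 in 48 of 50 libraries (96%, exact Clopper-Pearson 95% interval 86.3 to 99.5). It ran from 0 through 44.4 to 168 CPM. Per coding kb, the median ratio of Psmb10 to its constitutive counterpart Psmb7 was 0.154, and Psmb10 was the higher in 1 library. Psmb11 had a median of 1.14 CPM from 7.63 counts, none of them whole numbers in the 49 libraries above 0, so its level is also uncertain.

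The assembly chaperones with Psmd names, which help to build the base and are not part of the finished particle, were more variable. Psmd5 ran from 4.43 through 219 to 597 CPM, Psmd10 from 0 through 128 to 438 CPM and Psmd9 from 0 through 66.1 to 154 CPM. Their SDs on log2(CPM + 1) were 1.06, 1.84 and 1.69. Psmd9 counts were fractional in all 47 libraries above 0 and Psmd10 counts in 21 libraries, so both levels are uncertain too. Psmc3ip was at 0 in 6 libraries and had the largest SD of the 42 rows, 2.25.

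Spread from cell to cell grew from core to base to lid. The median SD of log2(CPM + 1) was 0.404 for core genes, 0.577 for base, 0.714 for lid and 1.18 for activators. Of the 42 members 29 had an SD under 1, against 23.1% of the 12012 genes tested (above 0 in at least 10 libraries), whose median SD was 1.83. Spread fell with level in these data, so the core was also set beside the 478 genes tested that lay in its own range of mean level. The 478 genes shared the core's range but had a lower median of mean level, 8.78 against 9.29. The part of that gap in their spread was not tested. Their median SD was 0.533, and 437 of them had an SD under 1. Of the 14 core genes 12 were under that median SD. The exceptions were Psma4 and Psmb7. Across the 31 core, base and lid genes, SD had r = -0.781 and rho = -0.835 with mean level and r = 0.664 and rho = 0.785 with coding length. These are across genes of the same libraries and carry no p.

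**Figure D3:**
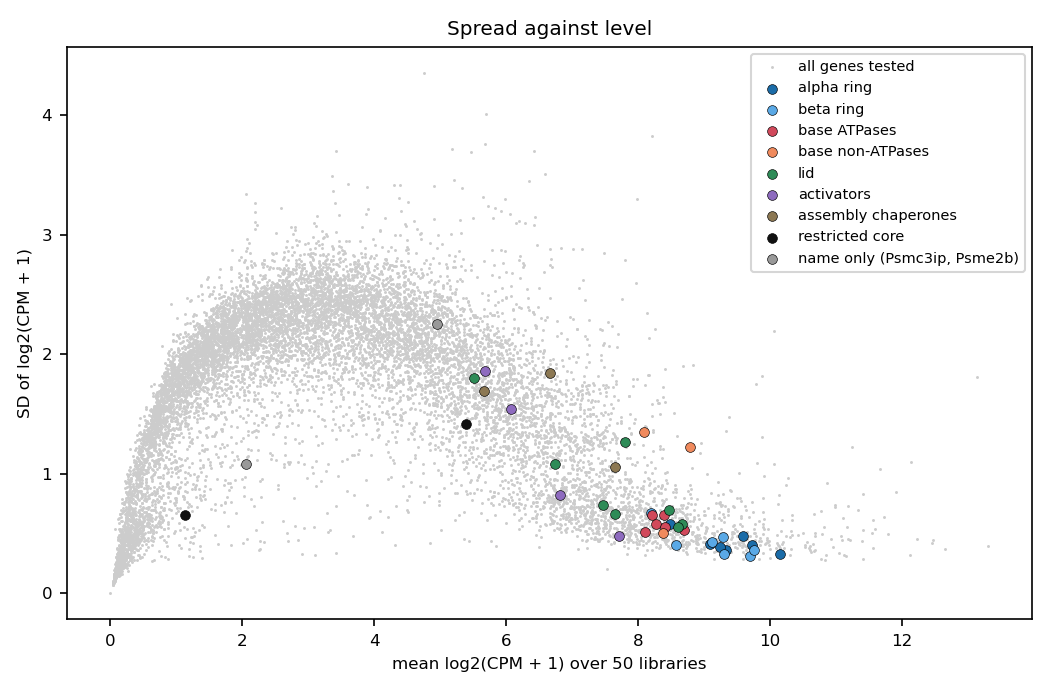
SD of log2(CPM + 1) over 50 libraries (vertical axis) against mean level (horizontal axis). Grey points are the 12012 genes tested and coloured points the 42 members by group. Core genes sit at the lower right, along the lower edge of the grey cloud, and Psmd1 and Psmd2 lie higher, at SDs of 1.35 and 1.22 that were 0.78 without library 17 and 0.75 without library 5.

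Spike-in sequences, scaled to the spike-in total of each library, gave a spread with no cell of origin. The 5 spike-ins whose mean count fell in the range of the core genes (2315 to 8583 counts) had SDs of 0.170 to 0.369, with a median of 0.266. The core median was 0.404. Over the wider count range of core, base and lid, 11 spike-ins had a median SD of 0.437 and a highest of 1.59, beside 0.550 for the 31 genes.

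Subunit genes rose and fell together only weakly across cells. The mean pairwise Pearson r of the 31 core, base and lid genes on log2(CPM + 1) was 0.120 over 50 libraries, against 0.0230 over all pairs of genes tested and 0.0332 among the 478 genes in the core's level range. Of their 465 pairs 75.3% were above 0, 15.7% above 0.3 and 1.29% below -0.3. Among the 478 genes these shares were 55.02%, 10.2% and 4.62%. Some base and lid genes lay below the level range of those 478. Over the 2766 genes tested in the range of core, base and lid the mean r was 0.0268, and pair shares were not read there. Cells share a culture, a chip and a scaling to 1 total, and no p is given. Within the core the mean r was 0.142, within the base 0.150 and within the lid 0.115. Between core and base it was 0.0945, between core and lid 0.0987 and between base and lid 0.160.

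In 3 cells the members were low on average. Libraries 19, 21 and 5 had the lowest mean z value over the 42 members, at -1.34, -0.884 and -0.812, and the next library was at -0.336. Library 19 held the lowest value of 8 of the 31 genes, library 5 of 4 and library 21 of 3. In library 21 all 14 core genes were below their medians, in library 5 10 of them and in library 19 9. The libraries were picked for low member values, so these counts are a description only. Such counts were not taken over all genes. Library 19 had 7436 detected genes, with 3 of the 50 libraries lower, while libraries 5 and 21 had 9044 and 9029. Without library 19 the mean r of the 31 genes was 0.0917, and that of the lid fell from 0.115 to 0.0524. These 3 libraries were picked for low values of the same members, so leaving them out lowers the members' r by construction, and values without them are a description only. Without all 3 the mean r was 0.0374, and it was 0.0995 for the core, 0.00471 for the base and 0.0291 for the lid. Of the 465 pairs 59.8% were then above 0, 7.53% above 0.3 and 3.87% below -0.3. For the 478 genes, which were not picked in this way, the mean r was 0.0324 and these shares were 54.97%, 9.98% and 4.53%. The part of these libraries' depth and detection in this was not tested.

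**Figure D4:**
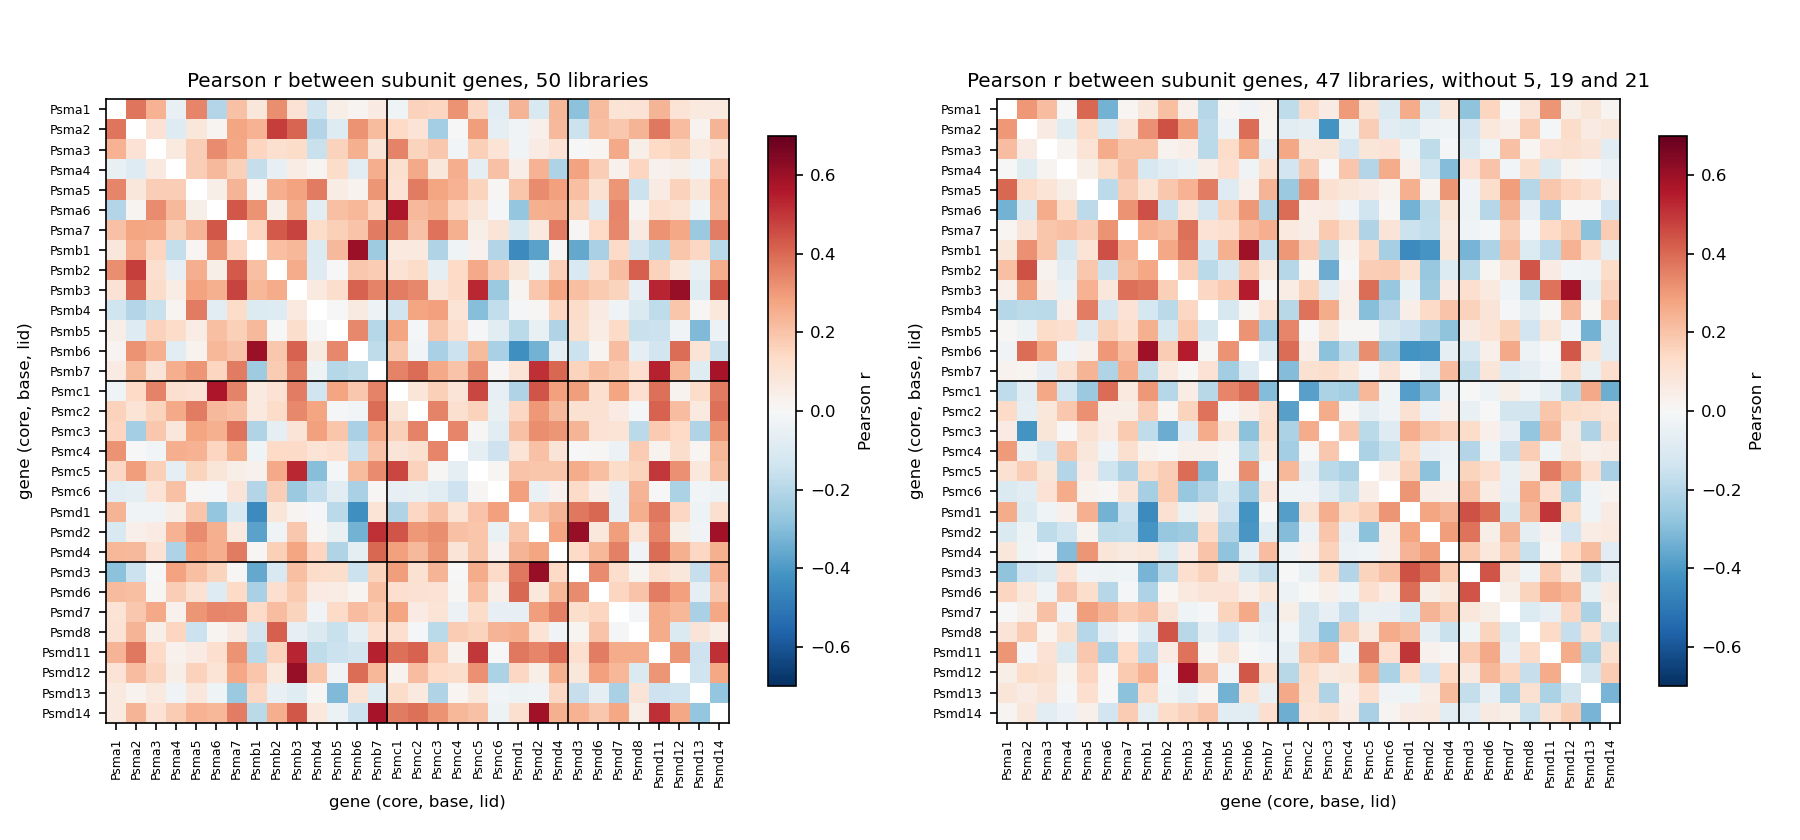
Pearson r between each pair of the 31 core, base and lid genes over 50 libraries (left) and over 47 libraries without 5, 19 and 21 (right), from blue at -0.7 to red at 0.7, with black lines between core, base and lid. Most of the red in the base and lid blocks fades on the right, while the Psmb1 and Psmb6 pair and the blue cells of Psmb1 with Psmd1 and Psmd2 remain.

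Single pairs differed in how far they rested on particular libraries. Psmb3 and the lid gene Psmd12 had the highest r, 0.610 (rho = 0.560), and 0.584 without them. Psmb1 and Psmb6, both of the beta ring, had r = 0.597 (rho = 0.548) and 0.591 without them. Psmd2 and Psmd14 had r = 0.588 with all libraries but 0.0710 without the 3. The lowest r, -0.447 (rho = -0.312), was between Psmb1 and Psmd1, with -0.445 without the 3 but -0.277 without library 17, which held the lowest Psmd1 and the highest Psmb1 value. Pairs below -0.3 were few, 6 of 465, and a smaller share than among the 478 genes of the core's level range. Psmb6 and Psmd1 had r = -0.431, and -0.177 without library 17. Psmb1 and Psmd2 had r = -0.377, between -0.408 and -0.343 with any 1 library left out. Among protease subunits Psmb5 and Psmb6 had r = 0.338, while Psmb7 had r = -0.202 with Psmb5 (-0.102 without library 19) and -0.177 with Psmb6. The activator partners Psme1 and Psme2 had r = 0.398 (rho = 0.421). With the 31 core, base and lid genes, activators had a mean r of -0.00515.

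The share of core genes beside the longer base and lid genes also varied between cells. Shares of 1 sum trade off by construction. The mean z value of the core had r = 0.424 (rho = 0.238) with that of the base. With that of the lid it had r = 0.461 (rho = 0.392). Core genes made up 54.3% of the summed core, base and lid CPM in the lowest library, 63.3% in the median and 77.7% in library 19. The log2 ratio of summed core to summed base and lid had r = 0.586 (rho = 0.509) with the share of gene counts taken by the other 3556 tested genes with a coding length under 1000 bases. That r was 0.461 without the 2 farthest libraries and 0.478 without libraries 5, 19 and 21. With the same short-gene share the mean z values of core, base and lid had r = 0.165, -0.416 and -0.287. Without libraries 5, 19 and 21 these were 0.539, -0.161 and 0.0619. The short-gene share ran from 49.7% to 63.4%, and library 19 was highest. The part of transcript length in the subunit ratios was not tested beyond this.

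**Figure D5:**
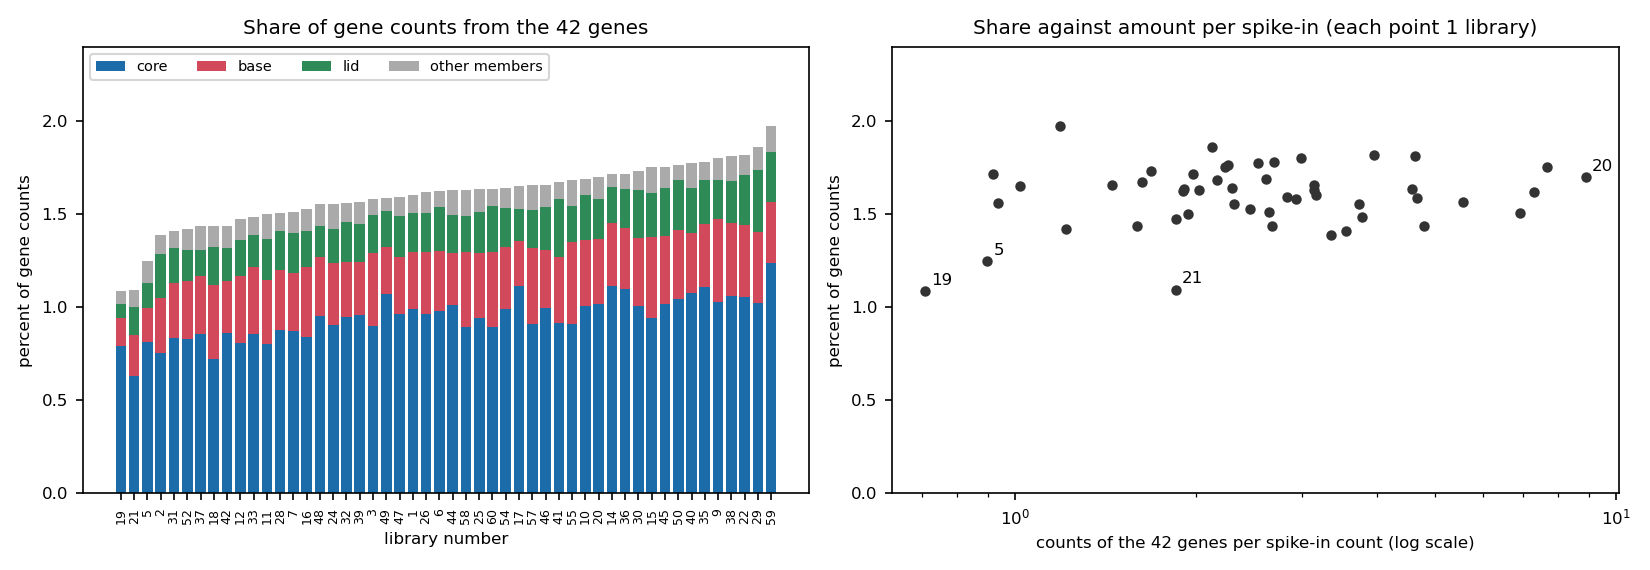
Left, percent of gene counts taken by core, base, lid and the remaining members in each of 50 libraries, ordered by their sum. Right, the summed percent against counts of the 42 genes per spike-in count (log scale), 1 point per library. The percent spans 1.09 to 1.97 while the amount per spike-in spans 0.708 to 8.91. The spike-in share of all counts itself spans 0.19% to 1.83%.

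Counts of proteasome genes per spike-in count varied more than their share of gene counts. Counts of the 42 members per spike-in count ran from 0.708 in library 19 through 2.50 to 8.91 in library 20, a 12.6-fold range, whereas the percent of gene counts spanned 1.82-fold. The spike-in share of all counts spanned 9.62-fold over the same libraries, so a wide range on this scale is not particular to the members. Scaled to spike-ins, the mean pairwise r of the 31 genes was 0.727, against 0.2004 for all genes tested. The genes tested were mostly lower, with a median of mean log2(CPM + 1) of 3.14 against 8.57 for the 31. No set of like level was read on this scale. The median SD of core genes was 0.900 on that scale. More RNA per cell and better capture cannot be told apart in this ratio.

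The member score, the mean z value over the 42 members, was set beside 9 library properties and gene lists. With detected genes it had r = 0.246 (rho = 0.214), and 0.137 without library 19. With log2 gene counts it had r = -0.104 (rho = -0.112), and -0.0491 without library 19. The highest value was with 20 cytosolic chaperone genes, which fold proteins, at r = 0.600 (rho = 0.481). It was 0.417 without the 2 farthest libraries, 17 and 19, and 0.367 without libraries 5, 19 and 21. Base and lid scores had r = 0.670 and 0.657 with that list, and the core score 0.289. With 74 ribosomal protein rows the core score had r = 0.518, base 0.102 and lid 0.140. For the whole member score that r was 0.279 (rho = 0.452), 0.452 without library 19, and -0.000902 with median-of-ratios scaling. With 14 G2 and mitosis genes the member score had r = 0.302 but rho = 0.0566, and r was 0.0181 without libraries 17 and 19. With 14 S phase genes it had r = 0.301 (rho = 0.188), and 0.0287 without the same 2. Without library 19 alone r was 0.0705 for G2 and mitosis and 0.0974 for S phase, so both were lower without it. Without libraries 5, 19 and 21 r was 0.0121 for G2 and mitosis and 0.214 for S phase. By group the S phase r was -0.0393 for the core, 0.487 for the base and 0.398 for the lid. For G2 and mitosis these were 0.0851, 0.393 and 0.301. With respiratory chain rows r was 0.0925 (rho = 0.231), and its direction turned with the scaling, to -0.228 with median-of-ratios factors. It was 0.245 without the 2 farthest libraries, 0.208 without library 5 and 0.298 without libraries 5, 19 and 21. By group that r was 0.424 for the core, -0.238 for the base and -0.202 for the lid.

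The mean pairwise r of 0.120 for core, base and lid stood beside 0.333 for ribosomal protein rows, 0.145 for cytosolic chaperones and 0.112 for respiratory chain rows. For S phase genes it was 0.439 and for G2 and mitosis genes 0.574. Median SDs were 0.394 for ribosomal protein rows and 0.495 for respiratory chain rows, near the 0.404 of the core. Differences between these lists were not tested.

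Other genes of the pathway were read from a list of 31 symbols, of which 29 had a row, 15 were above 0 in all 50 libraries and 28 in at least 25. Subunit genes under other names were Adrm1, a ubiquitin receptor, at 7.74 ± 0.60 on log2(CPM + 1) and Shfm1, a small lid subunit, at 8.72 ± 0.38. Of 5 assembly factors, Pomp, which matures the core, was highest at 756 CPM per coding kb and 8.28 ± 0.42. Psmg1 and Psmg4 were above 0 in all 50, Psmg3 in 49 and Psmg2 in 47. The ubiquitin gene Ubb was abundant and ran from 1913 through 3414 to 9090 CPM. The ubiquitin-activating enzyme Uba1 ran from 6.76 through 157 to 400.4 CPM and Uba6 was above 0 in 34 of 50.

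Among regulators, Nfe2l2 ran from 3.93 through 200.4 to 548 CPM. Nfe2l1 was above 0 in all 50 but lower, from 0.132 through 21.5 to 165 CPM. Ddi2, the protease that activates NRF1, was above 0 in 11 of 50 libraries, and Ngly1, which strips its sugars, in 42. Nfe2l1 had r = 0.0341 and Nfe2l2 r = -0.0651 with the member score. Among deubiquitinases that bind the proteasome the values were Usp14 r = 0.545 (rho = 0.306) and Uchl5 r = 0.426 (rho = 0.198). Without libraries 5, 19 and 21 these were 0.190 and 0.223.

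The 10 non-member genes with the highest r with the member score were Ndfip1, Thyn1, Pttg1, Snrpb, Tmem97, Nudt21, Hmgb3, Tcea1, Rwdd1 and Hadh. Their r lay between 0.613 and 0.708 over 50 libraries and their rho between 0.249 and 0.487. Without libraries 5, 19 and 21 the r lay between 0.126 and 0.390. Snrpb, a spliceosome protein, had r = 0.673 over 50 libraries, below Ndfip1 at 0.708, and the highest of the 10 without the 3, at 0.390. The median r of all non-member genes tested was 0.0491.

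In the 12 libraries rich in spike-ins the members were mostly missing. Library 43 had the most, with 9041 gene rows and all 42 members above 0. The members held 1.07% of its 389192 gene counts. Of the 31 core, base and lid genes 30 lay within the range of the 50 libraries. The core made up 62.7% of summed core, base and lid CPM there. The other 11 libraries had between 4 and 31 members above 0, with a median of 13, at 0.0170% to 2.28% of gene counts. Psma3 and Psma7 were the members above 0 most often among the 12, in 12 and 10 libraries. Both had fractional counts in many of the 50 libraries, so reads of other rows could enter here.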

How the data were processed

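The deposited table holds estimated counts per gene symbol, 1 column per library. Per the submitters' processing notes, kallisto and mm9 were used by the authors; version and annotation are not stated there. Library sizes exclude the 65 spike-in rows. Values stayed unrounded, except for thinning, scaled to CPM by the sum of gene rows, and set on log2(CPM + 1). Libraries with a spike-in share under 20% were used (50 of 62). No count model was fitted and no p-value computed, since the labels give 1 culture. Coding and exon lengths came from GENCODE M21 (principal transcript, matched by symbol), for 42 of 42 members and 91.4% of 12012 genes tested. The design named RefSeq proteins as the source of coding length; GENCODE was used in their place. Its build differs from mm9, so lengths, symbols and RefSeq promoters alone were used. Every r is Pearson's and every rho Spearman's. All members were named by group, with those of highest and lowest level and spread in detail, plus fixed pathway, cycle, chaperone and marker lists, and the 10 genes most like the score. The members and lists were chosen with earlier results of these data known, and the setting aside of libraries 5, 19 and 21 after their values were seen. Computations used Python 3.11.15, numpy 2.4.6, pandas 2.3.3 and scipy 1.17.1 and were tested on simulated counts. A few genes of the fixed lists are not reported here. Doublets were not called, and the exact intervals reflect only how many cells were sampled. No pair of libraries was identical (0 pairs).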

Additional observations from a re-analysis of the deposited data

Results flagged for a closer look

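Members were read in libraries outside the 50 used above. Library 43, with a spike-in share of 71.1%, had 42 of 42 members above 0. Among the other 11 libraries set aside for their spike-in share the highest number of members above 0 was 31, in library 56. That library had 5966 gene rows above 0.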

How the results depend on the processing

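No paired analysis was possible because the labels give 1 group. The choice of libraries moved most values. Over all 62 libraries the median levels of core, base and lid members were 8.03, 7.27 and 6.53 (log2), and the median SDs of core, base, lid and activator members 3.05, 2.87, 2.75 and 2.63. The mean pairwise r was there 0.776 for core, base and lid together and 0.821, 0.738 and 0.756 for each. With spike-in scaling, chosen after seeing the data, the median SDs of core, base and lid were 0.900, 1.02 and 1.16. The mean r was 0.727 for the 31 genes and 0.827, 0.702 and 0.598 for core, base and lid. With median-of-ratios size factors the core's mean r was 0.0800, and the r of the member score with ribosomal proteins -0.000902. Libraries 5, 19 and 21 were picked for their low member score, which lowers the members' r by construction. Without them the mean r was 0.0374 for the 31 genes and 0.0995, 0.00471 and 0.0291 for core, base and lid. The member score's r was then 0.367 with chaperones, 0.491 with ribosomal proteins and 0.0121 with G2 and mitosis genes. That last r was 0.0181 without the 2 farthest libraries. With no length scaling the core to base ratio was 1.83. The cause of the other shifts was not tested. Leaving out any 1 library gave a mean r of the 31 genes between 0.0917 and 0.126. With a pseudocount of 0.1, 41 of 42 member levels moved by less than 1 SD, and with size factors 42 of 42 did. Genes at a few counts, such as Psmb11, are limited by depth.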

Other observations

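Psmb11, the thymic core subunit, was counted at 7.63 in the median of the 50 libraries. In library 43 it stood at 74.9 CPM, above the highest of the 50, 6.28 CPM. The other 11 libraries rich in spike-ins had a median of 16.6 CPM and a highest of 137 CPM. Psme2b had its highest value, 51.9 CPM, in library 17, beside a median of 2.83 CPM. Library 17 also held the highest values of Psmb1, Psmb6, Psma6, Psmc1 and Psme1 and the lowest of Psmd1 and Psma1.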
